A study of Mus musculus with 9 samples.

Results

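Lines SAM1 and SAM2 are mouse embryonic fibroblast (MEF) lines with the same label, Hnrnpk_SAM, and the data were used to ask how far the transcriptomes of these lines differ from each other. The members are the 6 RNA-Seq libraries of these lines, 3 of SAM1 and 3 of SAM2, out of 9 libraries in the series, and all 15184 listed genes were compared. The remaining 3 libraries are MEFs with an empty vector, used to show on which side of the lines the control cells lie. They also entered the fit, so the spread behind the p-values between the lines draws on them. Per the methods of the study, WT fibroblasts from mid-gestation embryos were transduced with lentiviruses of the synergistic activation mediator (SAM) system, selected with blasticidin and hygromycin, and kept as the surviving cells. Per the same methods the control cells carried the SAM vector with a nontargeting guide, where the labels say empty vector. The reagent list of the study, as extracted from its pages, prints the same spacer for that guide and for an *Hnrnpk* guide, so what the controls carried is uncertain here, and this touches every comparison with them. Guides to *Hnrnpk* were used independently of each other. The library protocol in the labels names only sgRNA2, and which guide SAM1 and SAM2 each received is not given there. Each label was taken as 1 line, no treatment or time point was applied, and no source used here says whether the 3 libraries of a line came from separate cultures, so the p-values measure the spread between libraries, which may be technical.

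SAM is a CRISPR activation system in which a nuclease-dead Cas9 carries transcriptional activators to the promoter that its guide matches. HNRNPK, its target here, is an RNA- and DNA-binding protein of the heterogeneous nuclear ribonucleoprotein family, known to act in transcription, splicing and translation. MEFs are a mixed primary culture of mesenchymal cells, and lines derived from such a culture can carry different cells of the embryo. In bulk RNA, fewer cells of a type and less RNA per cell cannot be told apart.

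*Hnrnpk* (chr13:58536691-58551339, minus strand, GRCm39), the gene that the guides target, was measured at 24102, 24044 and 23619 normalized counts in the 3 SAM1 libraries and at 26608, 26859 and 26221 in the 3 SAM2 libraries. The empty vector libraries held 25058, 26098 and 26164. A normalized count is the number of reads on a gene divided by a size factor of its library. All SAM2 libraries lay above all SAM1 libraries, by 0.15 ± 0.0266 (SE) on the log2 scale (limma, adjusted p = 0.000288). The SAM1 libraries lay below the empty vector libraries (log2 difference -0.11, adjusted p = 0.00252), and SAM2 was not called against them (0.04, adjusted p = 0.159). In SAM1 these RNA-Seq values go against the activation that the label names. SAM1 and SAM2 are therefore used here as the names on the libraries, and no difference is read as a response to the level of *Hnrnpk*. The study itself reported higher *Hnrnpk* RNA by qRT-PCR, and higher protein by Western blot and immunofluorescence, in its SAM MEFs. No source used here says whether those measures were made on the cultures of these libraries.

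Reads on listed genes numbered 44465102 to 46845966 in SAM1 and 45973172 to 49026626 in SAM2, so the lines were sequenced to a like depth. Libraries of the same line correlated at r = 0.996 or above across genes. Fibroblast markers were present in every library: 15 of 15 were listed, and their summed normalized counts were 904900 to 962400 in SAM1 and 1182000 to 1220000 in SAM2. SAM1 replicate 2 stood somewhat apart from the other SAM1 libraries, with a chi-square per gene of 7.99 and 9.49 against them, while SAM1 replicates 1 and 3 differed by 1.46 and the SAM2 libraries by 1.55 to 2.33. The empty vector libraries lay further apart, at 13.79, 11.83 and 11.54 between pairs. Values above 1 exceed sampling noise, so no library was counted as a repeat of another. Leaving out SAM1 replicate 2 gave 8748 called genes in place of the 9162 described next.

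The lines differed across most of the transcriptome. Of 15184 genes, 9162 (60.3%) were called different between the lines at an adjusted p below 0.05 (limma on log2 of the value + 1, Benjamini-Hochberg over all genes). Of these, 4722 (31.1% of all genes) were higher in SAM2 and 4440 (29.2%) were lower. Most of these differences were small, since the median absolute log2 difference was 0.350 among called genes and 0.232 among all genes, with a median SE of 0.0564. Log2 differences are taken on log2 of the value + 1, which understates the change of genes with few reads, and folds are ratios of group means. Differences over 2-fold were called for 1448 genes (9.54%), of which 404 (2.66%) were higher in SAM2 and 1044 (6.88%) were lower. With quantile normalization these were 667 and 697. Differences over 8-fold were called for 44 genes (0.29%) higher in SAM2 and 124 (0.817%) lower. The SAM2 libraries lay wholly above the SAM1 libraries for 5281 genes (34.8%) and wholly below them for 5076 (33.4%). With 3 libraries against 3, an exact permutation test of a single gene cannot go below p = 0.1, so the calls rest on the spread that the fit shares across genes.

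**Figure D1:**
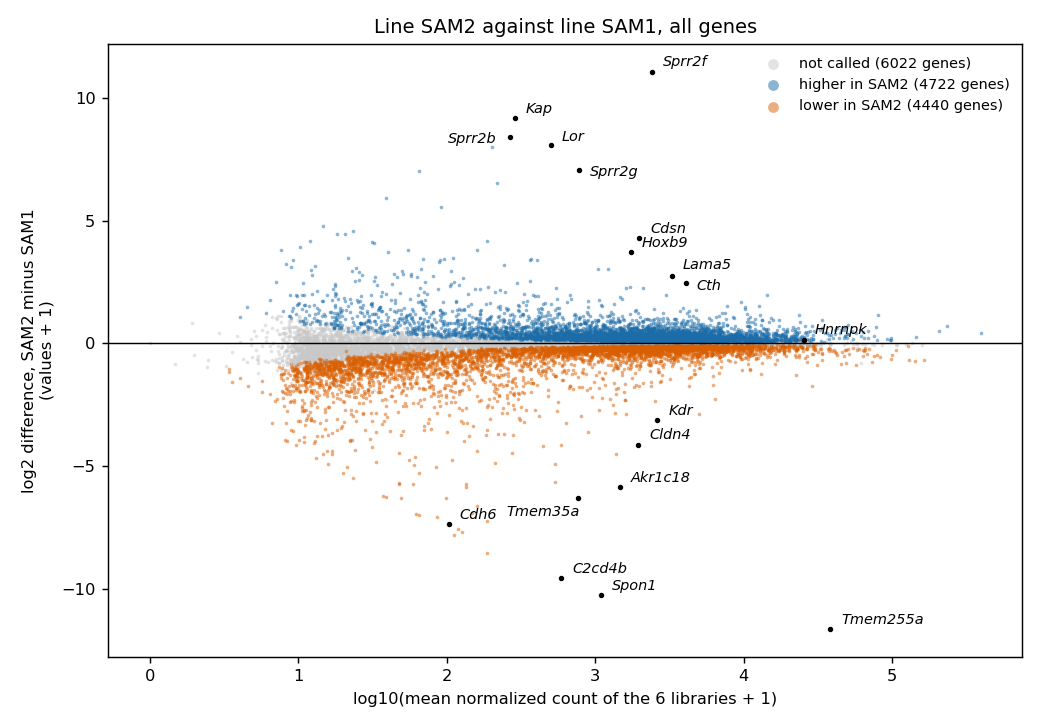
Each point is 1 of 15184 genes, with the log10 mean normalized count of the 6 libraries on the x axis and the log2 difference of SAM2 minus SAM1 on the y axis. Called genes are blue where higher in SAM2 and orange where lower, and the largest differences reach -11.62 (*Tmem255a*) and 11.05 (*Sprr2f*), while *Hnrnpk* lies at 0.15.

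The excess of large differences toward SAM1 lay among genes of low level. When genes were split by mean level into 10 groups of equal size, 831 genes of the 3 lowest groups (means up to 187) were over 2-fold lower in SAM2 and 245 were over 2-fold higher. In the 6 highest groups (means from 506), the numbers were 108 and 92. With quantile normalization, the low-level genes held 476 lower and 500 higher and their median moved from -0.31 to 0.05. That setting gives every library the same distribution of values, which by itself takes out a net shift of low-level genes. With TMM factors these genes held 837 lower and 245 higher, with edgeR 882 and 249, and with DESeq2 843 and 247. The source of the excess toward SAM1 was not tested. In the fit as reported, the median difference was -0.42 in the lowest group and 0.05 in the highest. Long noncoding RNA genes, most of them of low level here, shared this direction, with 474 of 1220 called lower in SAM2 (38.9%), 114 called higher (9.34%) and a median of -0.41 (-0.07 with quantile normalization). Their share of the signal was 0.501% to 0.511% in SAM1, 0.438% to 0.440% in SAM2 and 0.402% to 0.410% in the empty vector libraries. Protein-coding genes of the 3 lowest groups had a median of -0.24.

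Mitochondrial and histone transcripts were also lower in SAM2. The 10 measured genes of the mitochondrial genome list were all called lower in SAM2, by a median of -0.66. The share of the signal on the 17 listed mitochondrial genes, transfer RNAs included, was 1.98% to 2.16% in SAM1, 1.27% to 1.36% in SAM2 and 0.834% to 0.972% in the empty vector libraries. Replication-dependent histone genes have mRNAs that mostly end in a stem-loop in place of a polyA tail. Of 23 such genes 20 were called lower in SAM2 (87.0%, against 29.2% of all genes) and the other 3 were not called, with a median of -1.12. *H2bc21* measured 349, 342 and 349 in SAM1 and 138, 151 and 147 in SAM2, and *H4c9* measured 207, 239 and 231 and 107, 93.7 and 110.4. The groups did not overlap for either gene. Histone genes have near-identical copies that can share reads, so the value of a single copy is uncertain. The nuclear noncoding RNAs *Neat1* and *Malat1*, named after their values were seen, and *Meg3*, of the imprinted list, differed by -0.95, -0.41 and -0.76. The shares of mitochondrial and long noncoding RNA moved with the differences of low-level genes, and their part in them was not tested.

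**Figure D2:**
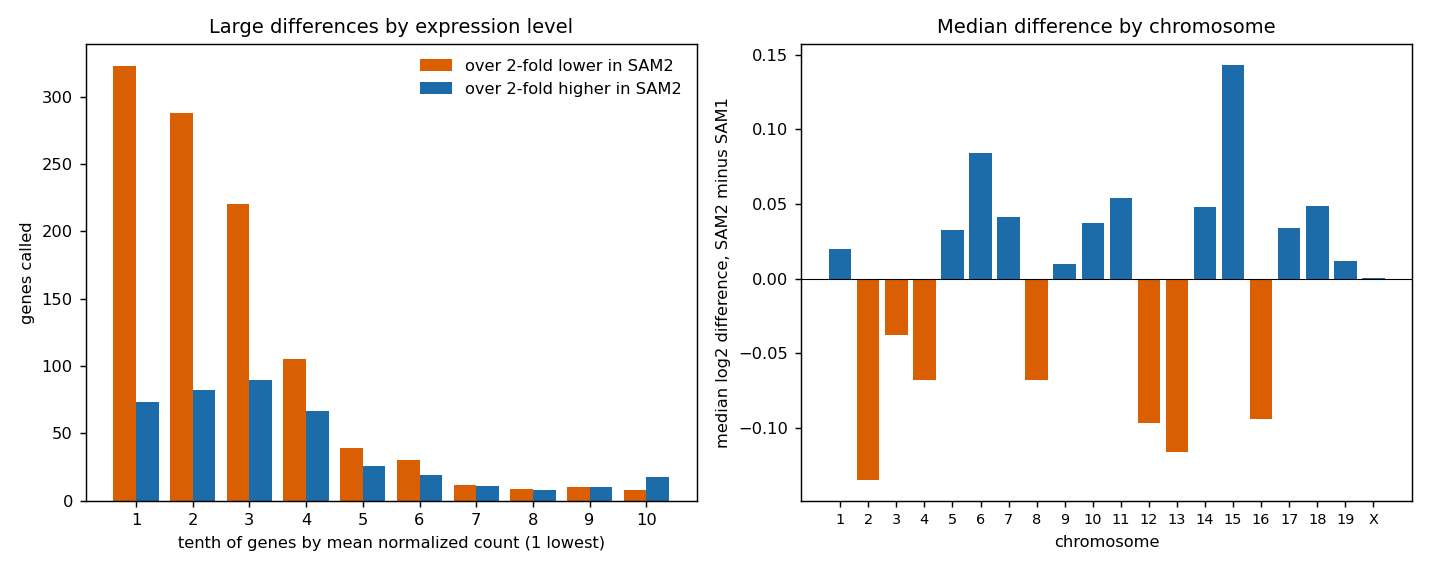
Left, the number of genes called over 2-fold lower (orange) or higher (blue) in SAM2 in each of 10 equal groups of genes by mean level, which falls from 323 and 73 in the lowest group to 8 and 18 in the highest. Right, the median log2 difference of SAM2 minus SAM1 on each chromosome, from -0.13 on chromosome 2 to 0.14 on chromosome 15.

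The gene furthest above in SAM1 was *Tmem255a* (chrX:37285450-37341418), which encodes a transmembrane protein. It measured 78337, 71240 and 79448 in SAM1, 12.9, 57.5 and 16.7 in SAM2 and 179, 128 and 165 in the empty vector libraries. Its mean was 2631-fold higher in SAM1 than in SAM2, with a log2 difference of -11.62 (-12.43 to -10.81, 95% interval, adjusted p = 3.92e-11). The lines lay on opposite sides of the controls, SAM1 above and SAM2 below. The SAM2 values varied among themselves.

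Several genes were read in SAM1 and were at or near 0 in both other groups. *Spon1*, which encodes the secreted matrix protein F-spondin (chr7:113364999-113642610), measured 2218, 2103 and 2183 in SAM1 and 0.989, 1.85 and 0 in SAM2. The SAM2 libraries held 3 reads of it in all, which gives a ratio of 2290 with an exact counting interval of 783 to 11106. *C2cd4b* and *C2cd4a*, neighbouring genes on chromosome 9 that encode nuclear proteins with a C2 domain, measured 1145, 1215 and 1177 and 351, 380.2 and 375 in SAM1. *C2cd4b* had 2 reads in SAM2, for a ratio of 1866 (516 to 15414), and *C2cd4a* had 0, so that it was at least 389-fold higher in SAM1, with a floor of 3 reads over the 3 libraries. *Cdh6*, a cadherin of embryonic tissues, measured 213, 209 and 189 in SAM1 and had 1 read in SAM2 (ratio 646, 115 to 25545). *Vat1l* and *Brinp3* also had 1 read each in SAM2 against means of 252 and 234 in SAM1, and *BC030500* had 0 against 221, at least 234-fold. In all, 347 called genes were at most 10 in every SAM2 library and higher in SAM1, and 22 of these had a SAM1 mean of at least 100. Of these 22, 20 were also at most 10 in every empty vector library. Such genes entered the table through the libraries in which they were high, since it holds genes above 10 in at least 30% of libraries.

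*Ccr1*, a chemokine receptor known from white blood cells, measured 351, 373 and 377 in SAM1 and 0.989, 0.927 and 2.78 in SAM2. *Nox1*, a superoxide-producing NADPH oxidase, measured 238, 259 and 288 and 2.97, 5.56 and 3.71. *Rorb*, a nuclear receptor known from the retina and brain, measured 260.1, 269.6 and 257 and 1.98, 2.78 and 7.42. All 3 genes were under 10 in each empty vector library. *Akr1c18*, an aldo-keto reductase that inactivates progesterone, was 58.2-fold higher in SAM1, with means of 2876 ± 106 against 49.4 ± 7.63 (SD, n = 3). *Tmem35a* was 82.5-fold, *Sgk2*, a serine/threonine kinase, was 150-fold and the amino acid transporter *Slc6a15* was 126-fold higher in SAM1 (adjusted p = 3.95e-10, 5.97e-07 and 7.28e-10). *Slc6a15* was 31.6 in the empty vector libraries, so SAM2 (2.49) lay below the controls and SAM1 (315) above them.

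The genes furthest above in SAM2 were led by those of the small proline-rich proteins. These proteins are cross-linked into the cornified envelope, the protein shell of the outermost skin cells, and their genes lie in a cluster on chromosome 3 called the epidermal differentiation complex. Their promoters are shown because these neighbouring genes moved together. The 210 bases before the start site of 4 members, from RefSeq on GRCm38.p6 and read 5′ to 3′ along the gene, are on the plus strand at chr3:92316495-92316704, chr3:92338930-92339139, chr3:92351933-92352142 and chr3:92364977-92365186. Capitals mark the letters TGANTCA, which the AP-1 factors Fos and Jun are known to bind, and TATAAA, the TATA box.
Sprr2b: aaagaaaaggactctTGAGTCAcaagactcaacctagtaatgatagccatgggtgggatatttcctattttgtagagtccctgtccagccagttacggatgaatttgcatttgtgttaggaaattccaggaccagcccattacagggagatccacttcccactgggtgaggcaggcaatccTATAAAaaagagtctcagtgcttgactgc
Sprr2d: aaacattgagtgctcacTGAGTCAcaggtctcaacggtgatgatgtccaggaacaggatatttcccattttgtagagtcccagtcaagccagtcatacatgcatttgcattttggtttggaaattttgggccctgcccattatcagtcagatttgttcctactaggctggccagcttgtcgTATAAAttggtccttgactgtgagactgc
Sprr2e: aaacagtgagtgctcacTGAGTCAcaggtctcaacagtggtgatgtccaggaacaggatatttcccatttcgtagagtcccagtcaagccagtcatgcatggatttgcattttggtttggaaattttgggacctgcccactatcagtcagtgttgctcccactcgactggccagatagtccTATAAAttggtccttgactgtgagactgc
Sprr2f: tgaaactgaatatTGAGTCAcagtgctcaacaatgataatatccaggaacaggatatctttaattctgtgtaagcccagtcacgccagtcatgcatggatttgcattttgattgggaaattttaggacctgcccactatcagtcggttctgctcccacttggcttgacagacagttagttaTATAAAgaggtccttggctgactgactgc

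In these 4 sequences TATAAA began 29 bases before the start site and TGANTCA 193 to 197 bases before it. The windows of *Sprr2d* and *Sprr2e* had the same base at 193 of 210 positions. Of 18 measured genes of the cornified envelope and keratin list, 15 were found in the RefSeq table, and 10 of these held TGANTCA and 11 held TATAAA on either strand in the 250 bases before a start site. Among all 32851 promoters of the table the shares were 6.75% and 12.4%, and 1.21% held both. *Sprr2g*, *Krt19* and *Krt80* were not in the promoter table. A match describes letters and does not show that a factor was bound.

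*Sprr2f* measured 4858, 4810.5 and 4706 in SAM2, 0.949, 1.98 and 0.977 in SAM1 and 95.1, 119.8 and 112 in the empty vector libraries. The mean was 3685-fold higher in SAM2, a log2 difference of 11.05 (10.72 to 11.38, adjusted p = 2.48e-14). All SAM2 libraries were above all controls and all SAM1 libraries were below them. *Sprr2g* had the same order of groups, with 1585, 1524 and 1488 in SAM2, 10.4, 11.8 and 9.77 in SAM1 and 73.7, 75.6 and 71.3 in the controls, and was 143-fold higher in SAM2. *Sprr2b* had 2 reads in SAM1 (ratio 816, 225 to 6741) and *Sprr2d* had 3 (ratio 411, 140 to 1996). *Sprr2e*, *Sprr2k* and *Sprr2h* were 112-fold, 61.2-fold and 18.7-fold higher in SAM2. Paralogs of this family have near-identical stretches, and aligned reads could match up to 20 places, so the split of reads among members is uncertain while the direction was the same in all 10 measured *Sprr* genes.

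Other cornified envelope genes moved with them. *Lor*, which encodes the envelope protein loricrin, measured 984, 1067 and 956 in SAM2 and 0.949, 1.98 and 7.81 in SAM1. *Cdsn*, which encodes the adhesion protein corneodesmosin of the cornified layer (chr17:35863025-35868077), measured 3732, 3698 and 3815 in SAM2, 209.8, 171 and 191 in SAM1 and 2158, 2046 and 1933 in the controls, and was 19.7-fold higher in SAM2. It lies outside the chromosome 3 cluster, on chromosome 17. *Sprr1a* was 4.91-fold higher in SAM2 (adjusted p = 1.11e-12), and *Prr9*, another gene of the cluster, was 14.8-fold higher. Of the 28 genes written on the list, 18 were measured, and 13 were called higher in SAM2 (72.2%) and 2 lower (11.1%), against 31.1% and 29.2% of all genes. The median was 4.05, against -0.0075 over all genes. The 2 that fell were keratins of simple epithelia, *Krt20* (-1.97) and *Krt19* (-0.46). The involucrin gene *Ivl* measured 24.7, 33.6 and 27.3 in SAM1 and 12.9, 19.5 and 22.3 in SAM2 and was not called, and *Krt5* and *Krt14*, the defining keratins of basal epidermis, were not listed at all.

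**Figure D3:**
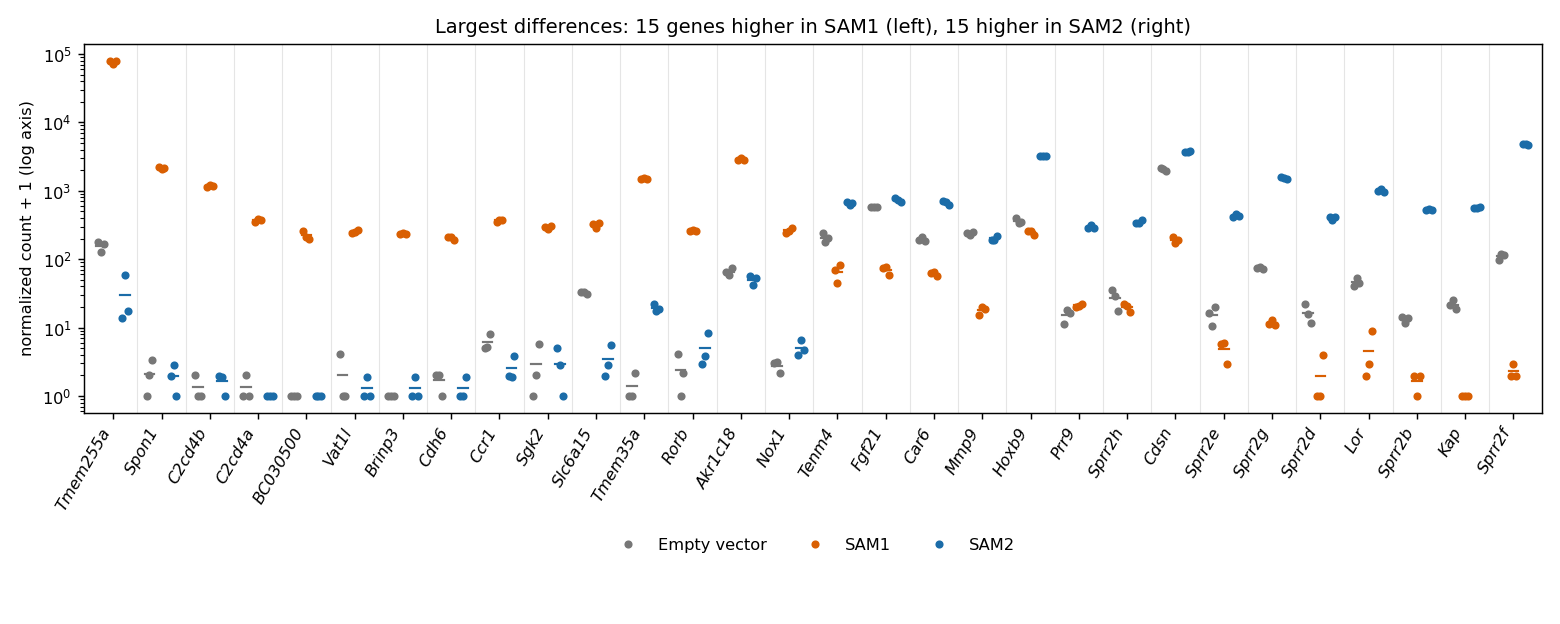
Normalized counts + 1 on a log axis for the 15 genes with the largest difference toward SAM1 (left) and toward SAM2 (right) among those with a mean of at least 100, with a point for each of the 3 libraries of a group and a bar at the mean of the group. Only called genes in which SAM1 (orange) and SAM2 (blue) did not overlap could be picked, so the gap in these 30 genes follows from the choice. The empty vector libraries (grey) lie near SAM2 for most genes on the left.

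Beyond these, the SAM2 side held *Kap*, a kidney androgen-regulated gene, at 568, 567 and 579.9 in SAM2 with 0 reads in SAM1, which makes it at least 589-fold higher. *Hoxb9* (chr11:96162150-96167421), a homeobox transcription factor of the posterior body, measured 3257, 3193 and 3252 in SAM2, 253, 258 and 228 in SAM1 and 393, 333 and 353 in the controls. The difference was 13.1-fold (log2 3.71 ± 0.0654, adjusted p = 1.81e-13), and SAM2 stood apart from both other groups. *Car6*, a secreted carbonic anhydrase, the gelatinase gene *Mmp9* and the teneurin gene *Tenm4* were 11.1-fold, 11.8-fold and 10.3-fold higher in SAM2. *Mmp9* was 14.2, 18.8 and 17.6 in SAM1, 191, 191 and 217 in SAM2 and 240.4, 226 and 252 in the controls, so SAM1 stood apart from both other groups. *Ano5*, which encodes a protein of the anoctamin family, had 0 reads in SAM1 and was at least 132-fold higher in SAM2. Of 87 called genes that were at most 10 in every SAM1 library and higher in SAM2, 9 had a SAM2 mean of at least 100, and 3 of these 9 were at most 10 in the controls.

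The integrated stress response was the gene list with the most uniform direction toward SAM2. In this pathway, kinases that sense amino acid shortage, unfolded protein or other stress slow translation and raise the factor ATF4, which switches on genes for amino acid uptake, serine and one-carbon metabolism and the unfolded protein response. ATF4 is known to bind with C/EBP partners at sites that hold TGATGNAA. Promoters of 4 targets that contain these letters on either strand are shown, as the 160 bases before the start site with the letters in capitals. All 4 lie on the minus strand of GRCm38.p6 (RefSeq), at chr3:50443614-50443773, chr7:45615491-45615650, chr6:7693210-7693369 and chr7:126625471-126625630, and are written along the gene.
Slc7a11: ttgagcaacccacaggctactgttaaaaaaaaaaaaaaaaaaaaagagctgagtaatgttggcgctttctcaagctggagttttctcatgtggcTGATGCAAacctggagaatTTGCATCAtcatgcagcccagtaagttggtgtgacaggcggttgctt
Fgf21: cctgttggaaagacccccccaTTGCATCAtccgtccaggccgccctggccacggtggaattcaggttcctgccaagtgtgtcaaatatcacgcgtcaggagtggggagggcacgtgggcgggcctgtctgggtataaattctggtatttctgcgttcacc
Asns: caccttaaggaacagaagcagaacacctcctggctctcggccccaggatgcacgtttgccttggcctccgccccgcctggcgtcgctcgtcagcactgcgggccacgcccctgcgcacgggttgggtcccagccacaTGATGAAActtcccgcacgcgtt
Nupr1: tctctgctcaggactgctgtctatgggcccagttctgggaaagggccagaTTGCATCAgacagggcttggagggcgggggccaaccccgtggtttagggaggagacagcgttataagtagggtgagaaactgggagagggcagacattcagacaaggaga

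Of 32 measured genes of the list, 28 had a promoter in the table, and 7 of these held TGATGNAA in the 250 bases before a start site, against 3.45% of all promoters. These were *Asns*, *Chac1*, *Fgf21*, *Nupr1*, *Pycr1*, *Slc7a11* and *Vldlr*, and *Slc7a11* held it 2 times. *Slc7a5*, *Slc7a3*, *Cth* and *Aldh1l2* were not in the promoter table. The table holds GRCm38 starts, and the reads were aligned to GRCm39.

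All 32 genes of the list were measured, 30 were called higher in SAM2 and 1 was called lower, against 31.1% and 29.2% of all genes. Of these, 15 were over 2-fold higher (2.66% of all genes). The median difference was 0.97, while each line against the controls had a median of -0.77 for SAM1 and 0.30 for SAM2. These last values share the control libraries. *Atf4* itself measured 22927, 24227 and 22715 in SAM1, 33170, 32793 and 32596 in SAM2 and 24900, 26588 and 25338 in the controls, a log2 difference of 0.50 ± 0.0325. *Cebpb*, a C/EBP factor, was the 1 gene called lower (-0.47), and *Gdf15* was near the limit of the counts, at 4.75, 6.91 and 6.84 in SAM1 and 10.9, 13.9 and 11.1 in SAM2, and was not called (adjusted p = 0.12).

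*Fgf21*, a secreted hormone of the fasting and stress response, measured 72.1, 77.0 and 57.6 in SAM1, 777, 728 and 692 in SAM2 and 585, 585 and 581 in the controls. It was 10.6-fold higher in SAM2 (log2 3.20 to 3.60, 95% interval), and SAM1 stood apart from the other groups. *Cth*, the enzyme that makes cysteine from cystathionine, measured 1213, 1261 and 1252, 6980.4, 6966 and 6765 and 4154, 4226 and 4203 in the same order. It was 5.56-fold higher in SAM2, and the 3 groups did not overlap. *Slc7a3*, a transporter of cationic amino acids, measured 257, 261 and 281, 2232, 2162 and 2136 and 259, 256 and 248, so here SAM2 stood apart and SAM1 overlapped the controls. Other amino acid transporters of the list were also higher in SAM2, unlike *Slc6a15*, which is not on it, with folds of 2.64 for the cystine carrier *Slc7a11*, 2.24 for *Slc7a5*, 2.04 for *Slc1a4* and 1.48 for *Slc3a2*.

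The enzymes of serine and one-carbon metabolism on the list followed. The differences on the log2 scale were 0.54 for *Phgdh*, 0.86 for *Psat1* and 1.24 for *Psph*, which together make serine, and 1.03, 0.88 and 1.97 for the mitochondrial folate enzymes *Shmt2*, *Mthfd2* and *Aldh1l2*. *Aldh1l2* measured 5986, 5357 and 6122 in SAM1, 22821, 22286 and 23031 in SAM2 and 9482, 8106 and 8605 in the controls. *Asns*, asparagine synthetase, differed by 0.95, and *Gpt2*, a mitochondrial alanine aminotransferase, by 1.51. The stress regulators *Trib3*, *Chac1*, *Sesn2* and *Ppp1r15a* differed by 1.31, 0.79, 0.85 and 0.77, while *Ddit3*, which encodes CHOP, differed by only 0.31 (all called, largest adjusted p = 1.43e-05). Chaperones of the endoplasmic reticulum did not follow as a list, with 11 of 23 called higher (47.8%) and 11 lower (47.8%), against 31.1% and 29.2% of all genes. Their median of 0.03 turned to -0.04 with quantile normalization.

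**Figure D4:**
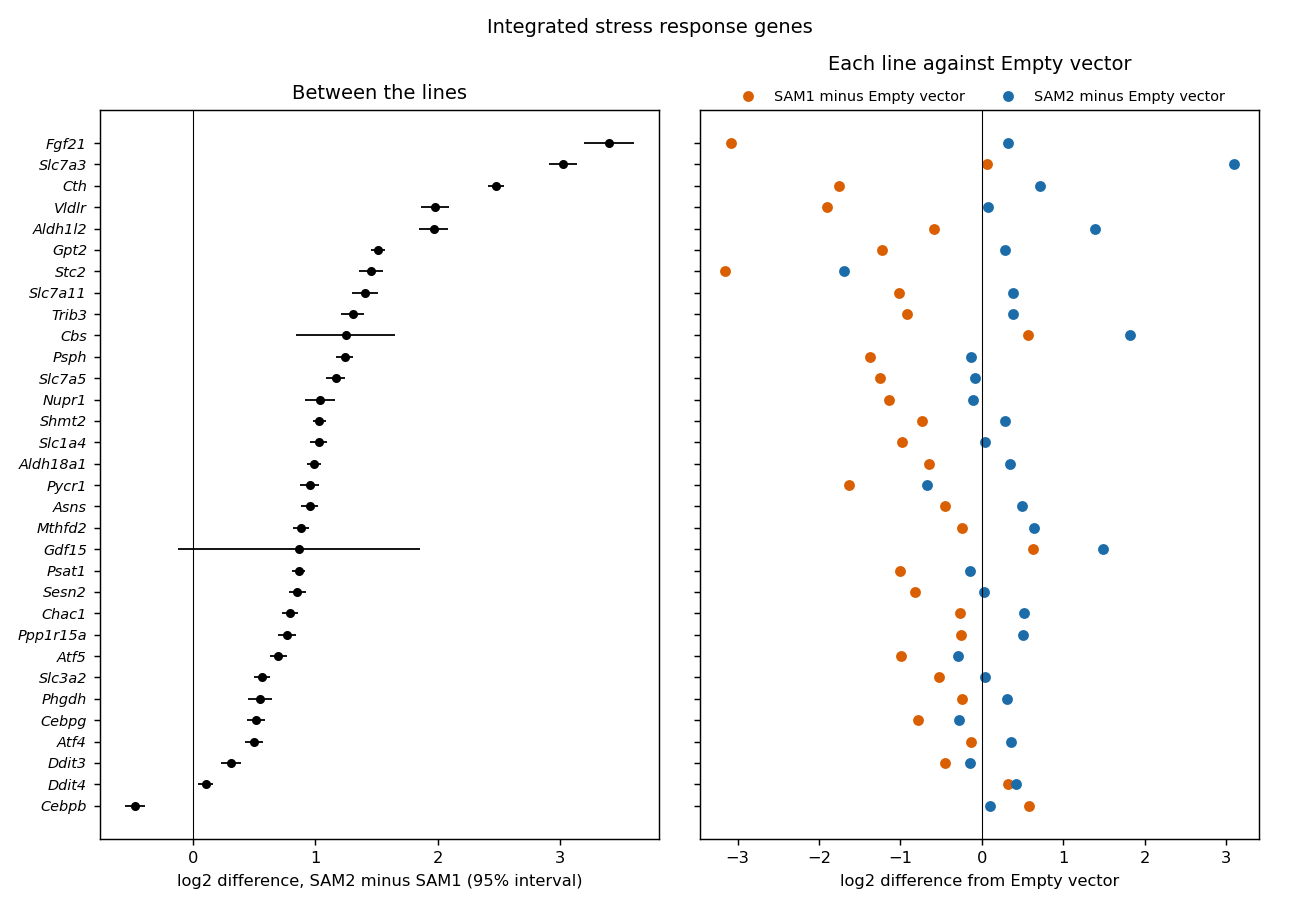
Left, the log2 difference of SAM2 minus SAM1 for the 32 measured integrated stress response genes with 95% intervals, in which 30 lie wholly above 0, *Gdf15* spans 0 and *Cebpb* lies below. Right, the log2 difference of SAM1 (orange) and of SAM2 (blue) from the empty vector libraries for the same genes, with medians of -0.77 and 0.30.

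Interferon response genes were also higher in SAM2, although both lines lay below the controls. These genes are switched on by STAT and IRF factors when cells sense viral nucleic acid or interferon. Of 67 written, 64 were measured, 48 were called higher in SAM2 (75%) and 9 lower (14.1%), against 31.1% and 29.2% of all genes, with a median of 0.41. Against the controls the medians were -1.08 for SAM1 and -0.65 for SAM2. *Bst2*, which encodes the virus-tethering protein tetherin, measured 3690.3, 4178 and 3700.2 in SAM1, 7739, 7939 and 7851 in SAM2 and 17299, 19795 and 18386 in the controls. *Irgm1*, an interferon-induced GTPase, measured 1747, 1667 and 1666, 4074, 3943 and 3908 and 4356, 4519 and 4356. For both genes SAM2 lay between SAM1 and the controls, with no overlap. *Ifi44* and *Isg15* were 2.54-fold and 1.81-fold higher in SAM2, and *Oas2*, an oligoadenylate synthetase, was 5.56-fold higher at low counts (7.59, 10.9 and 11.7 against 58.4, 50.1 and 59.4). Of 4 measured guanylate-binding proteins on the list, *Gbp2* was lower in SAM2, at 290.4, 334 and 325 in SAM1 and 169, 185 and 139 in SAM2, *Gbp9* was lower as well (-1.38), *Gbp7* was higher (0.28) and *Gbp3* was not called (-0.09). Of 23 genes of MHC class I and antigen loading, 13 were called higher in SAM2 (56.5%) and 6 lower (26.1%), with a median of 0.31. *H2-K1* measured 5417, 5772 and 5429 in SAM1 and 8961, 9253 and 8841 in SAM2, while *H2-Q4* (-0.43), *Pdia3* (-0.41) and *Calr* (-0.29) were lower. MHC and Oas genes have close copies, so the split of reads among them is uncertain.

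Of 33 measured collagen genes, 19 were called higher in SAM2 (57.6%) and 7 lower (21.2%), against 31.1% and 29.2% of all genes, with a median of 0.40. *Col1a1*, the main chain of type I collagen, measured 178479, 171059 and 176656 in SAM1, 283194, 289752 and 297582 in SAM2 and 224137, 232100 and 208450 in the controls, and was 1.65-fold higher in SAM2. *Col3a1* and *Col5a2* differed by 0.60 and 0.63, and the type IV chains *Col4a1*, *Col4a2* and *Col4a5* of the basement membrane by 0.54, 0.64 and 1.25. *Col2a1*, the collagen of cartilage, measured 6485, 6449 and 6653 in SAM1, 1919, 1923 and 2009.8 in SAM2 and 183, 187 and 178 in the controls. *Col18a1*, which holds endostatin, was 4.14-fold higher in SAM1, and *Col15a1* was 2.51-fold higher there, so basement membrane collagens went both ways. *Col23a1* was 2.16-fold higher in SAM1.

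Among 72 matrix glycoproteins and proteoglycans, 35 were called higher in SAM2 (48.6%) and 25 lower (34.7%), against 31.1% and 29.2% of all genes, with a median of 0.11. The proteoglycan *Podn* (59.5 against 275), the elastic fibre protein *Mfap4* and *Nid2* of the basement membrane were 4.62-fold, 5.46-fold and 3.07-fold higher in SAM2. Versican (*Vcan*), tenascin C (*Tnc*) and osteopontin (*Spp1*) were lower in SAM2 (-1.24, -0.80 and -0.83). *Vcan* measured 19105, 16256 and 19639 in SAM1 and 7999, 7438 and 7790.3 in SAM2, without overlap. *Lama5*, a laminin chain of the basement membrane, measured 895, 779 and 911 in SAM1, 5668, 5574 and 5871 in SAM2 and 1402, 1210.1 and 1252 in the controls, a 6.62-fold difference in which SAM2 stood apart. Of 31 integrin and laminin genes, 11 were called higher (35.5%) and 12 lower (38.7%), and the median of -0.10 turned to 0.05 with quantile normalization. The integrins *Itgb4*, *Itga2* and *Itgb7* were lower (-2.11, -1.55 and -1.14), and *Itga7* and *Itga11* were higher (1.32 and 1.01).

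Matrix proteases and their inhibitors gave 23 called higher (57.5%) and 12 lower (30%) of 40 measured, against 31.1% and 29.2% of all genes, with a median of 0.24. The stromelysin genes *Mmp3* and *Mmp10*, which cut many matrix proteins, were lower in SAM2 (-4.88 and -2.14). *Mmp3* measured 389, 425 and 403 in SAM1, 7.91, 15.8 and 16.7 in SAM2 and 50.1, 67.2 and 67.8 in the controls. The aggrecanase genes *Adamts4* and *Adamts5* were higher in SAM2 by 0.80 and 0.85, with *Adamts5* at 2613, 2423 and 2527 in SAM1, 4647, 4423 and 4601 in SAM2 and 18033, 16574 and 17599 in the controls. Both lines thus lay far below the controls for *Adamts5*, and SAM1 lay lower.

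Genes of the BMP pathway were more often called lower than higher in SAM2. BMPs are secreted growth factors that act through SMAD proteins to raise the *Id* genes, which encode inhibitors of differentiation factors, and are held back by secreted antagonists. Of 25 measured genes, 14 were called lower in SAM2 (56.0%, against 29.2% of all genes) and 8 higher (32.0%, close to the 31.1% of all genes), with a median of -0.35. All 4 *Id* genes were called lower. *Id2* measured 2369, 2648 and 2513 in SAM1, 591, 633 and 664 in SAM2 and 533, 558 and 544 in the controls, and *Id4* measured 1539.5, 1564 and 1544, 350.1, 335 and 329 and 352, 371 and 383. *Id1* and *Id3*, named here to complete the family, differed by -0.87 and -0.97. The antagonist *Grem1* was also lower in SAM2, at 44419, 42793 and 44736 in SAM1, 13572, 13210 and 13214 in SAM2 and 40388, 38862 and 39898 in the controls. The ligands *Bmp4* and *Bmp6* were higher in SAM2, by 1.12 and 1.08. For *Grem1* SAM2 stood apart from the other groups, while for *Id2* and *Id4* SAM1 did.

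In the Wnt pathway, in which secreted ligands stabilise beta-catenin and act through TCF and LEF factors, 20 of 50 measured genes were called lower in SAM2 (40.0%, against 29.2% of all genes) and 13 higher (26.0%, against 31.1%), with a median of -0.08. *Lef1* measured 955, 952 and 969 in SAM1, 152, 146 and 133 in SAM2 and 53.2, 67.2 and 65.4 in the controls, a 6.66-fold difference. *Wnt4*, a ligand, and *Notum*, a secreted Wnt inhibitor that is itself a Wnt target, were 8.5-fold and 7.73-fold higher in SAM1 (adjusted p = 3.87e-10 and 8.08e-11). The receptor-side genes *Lgr5* and *Rnf43* were lower in SAM2 (-2.12 and -1.85) at low counts. *Rspo2*, a ligand of the LGR receptors, and the receptor *Fzd4* were higher in SAM2, by 1.60 and 1.24.

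Among 55 growth factors and receptors, 26 were called lower in SAM2 (47.3%, against 29.2% of all genes) and 14 higher (25.5%, against 31.1%). *Kdr*, a receptor for VEGF known from blood vessel cells, measured 4712, 4490.1 and 4877 in SAM1, 548, 504 and 555 in SAM2 and 238, 217 and 176 in the controls, and was 8.76-fold higher in SAM1. *Pdgfb* and *Hgf*, secreted growth factors, were 4.89-fold and 3.46-fold higher in SAM1. The collagen receptor *Ddr2* measured 11059, 9729.8 and 10905 in SAM1 and 20777, 20043 and 21083 in SAM2. The TGF-beta list gave 10 called higher (41.7%) and 9 lower (37.5%) of 24. Its activin subunit *Inhba* and the activin antagonist *Fst* were 2.52-fold and 4.04-fold higher in SAM1 and the receptor *Tgfbr2* was higher in SAM2 (0.86). The IGF axis gave 9 called higher (42.9%) and 7 lower (33.3%) of 21. Its binding protein *Igfbp2* measured 16.1, 12.8 and 16.6 in SAM1, 169, 198 and 159 in SAM2 and 479.8, 555 and 512 in the controls. *Igfbp4* and *Stc1* were lower in SAM2 (-1.09 and -1.22). The Notch and Hedgehog list gave 13 called higher (48.15%) and 6 lower (22.2%) of 27. *Notch3* was 3.82-fold higher in SAM2, while *Notch4* was 4.07-fold and the Hedgehog-binding protein *Hhip* 3.04-fold higher in SAM1.

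Genes of retinoid and steroid hormone metabolism and response were mostly higher in SAM1. Of 25 measured, 15 were called lower in SAM2 (60%, against 29.2% of all genes) and 4 higher (16%, against 31.1%), with a median of -0.47. *Crabp1*, which carries retinoic acid inside cells, measured 3721, 3996 and 3582 in SAM1, 1972, 2029.7 and 1882 in SAM2 and 4086, 4655 and 4022 in the controls, a difference of -0.94. *Aldh1a3*, which makes retinoic acid, was 2.75-fold higher in SAM1. The retinoid receptor *Rarb* was higher in SAM2 (0.31).

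Hox genes as a list were called about as often as other genes. They lie in 4 clusters and are known to keep the position at which a fibroblast arose. Of 39 written, 17 were measured, 5 were called higher in SAM2 (29.4%) and 4 lower (23.5%), against 31.1% and 29.2% of all genes. The 5 were *Hoxb5*, *Hoxb6*, *Hoxb7*, *Hoxb8* and *Hoxb9*, which follow each other on chromosome 11, with differences of 0.58, 1.11, 1.13, 2.24 and 3.71. *Hoxb8* measured 177, 188 and 200.2 in SAM1, 887, 893 and 901 in SAM2 and 158, 148 and 152 in the controls. *Hoxb2*, *Hoxb3* and *Hoxb4* of the same cluster differed by 0.02, 0.02 and -0.11 and were not called. The 4 that were lower were *Hoxa2*, *Hoxa3* and *Hoxa5* of the chromosome 6 cluster (-1.01, -0.72 and -0.78) and *Hoxd8* (-0.28). *Hoxa3* and *Hoxa5* measured 15.4 and 9.35 in the controls, below both lines.

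Of 70 other positional and mesenchymal transcription factors, 39 were called lower in SAM2 (55.7%, against 29.2% of all genes) and 17 higher (24.3%, against 31.1%), with a median of -0.22. *Foxf1* and *Foxf2*, related forkhead factors of the mesenchyme, went opposite ways, at 121, 82.0 and 79.1 in SAM1 and 426, 371 and 382 in SAM2 for *Foxf1* and 569, 558 and 578 and 198, 174 and 191 for *Foxf2*. *Sox5*, *Dlx2* and *Snai1* were lower in SAM2 (-1.62, -1.28 and -0.89), and *Zeb1* was higher (0.70).

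Among 25 cadherins and protocadherins outside the gene clusters, 14 were called lower in SAM2 (56.0%, against 29.2% of all genes) and 6 higher (24.0%, against 31.1%), with a median of -0.40. *Pcdh20* measured 215, 184 and 182 in SAM1 and 2.97, 2.78 and 0 in SAM2, and *Pcdh7* measured 3529.9, 3348 and 3666 and 1189, 1181 and 1209.9. *Cdh13* was 2.39-fold higher in SAM1, and *Dchs1*, the partner of *Fat4*, was 2.52-fold higher in SAM2 while *Fat4* was lower (-0.82). In the clustered protocadherins, whose exon choice gives neurons their surface identity, 11 of 30 were called higher in SAM2 (36.7%, near the 31.1% of all genes) and 2 lower (6.67%), with a median of 0.27. *Pcdhb20* measured 267, 251 and 258 in SAM1, 532, 560.0 and 597 in SAM2 and 801, 724 and 772 in the controls. *L1cam*, a neural adhesion molecule named after its values were seen, was 22.6-fold higher in SAM1. Semaphorins, ephrins and other guidance genes gave 26 called lower (48.15%) and 15 higher (27.8%) of 54. *Sema4d* was at 33.2, 28.6 and 36.1 in SAM1 and 162, 172 and 200.4 in SAM2.

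Markers of other cell types were listed only in part, and more of those measured were called lower than higher in SAM2. Of 12 epithelial markers 5 were measured, and *Epcam*, *Krt18*, *Krt5* and *Krt14* were not listed. Their summed level was 7238 to 7760 in SAM1 and 2896 to 2980 in SAM2, and the tight junction gene *Cldn4* accounted for most of the gap. It measured 3679.9, 3771 and 3621 in SAM1, 191, 233 and 209.7 in SAM2 and 369, 382 and 346 in the controls. *Cdh1*, E-cadherin, measured 86.4, 85.9 and 93.8 and 39.6, 20.4 and 37.1 in the lines, and *Trp63*, the regulator of basal epidermis, was higher in SAM2 (24.2 against 61.5). Of 10 endothelial markers 6 were measured, and *Tie1*, *Emcn*, *Cldn5* and *Erg* were not listed. The sums were 4941 to 5356 in SAM1 and 923 to 985 in SAM2. *Kdr* made up nearly all of the SAM1 sum and a smaller part of the SAM2 sum. *Pecam1* was 30.4, 32.6 and 25.4 in SAM1 and 11.9, 14.8 and 9.28 in SAM2. *Vwf* was also lower in SAM2 (-0.33), while *Tek* was higher (1.18) and *Cdh5* and *Esam* were not called. Of 12 blood cell markers 3 were measured and *Ptprc* was not listed, and *Lyz2*, a lysozyme of macrophages, was 3.99-fold higher in SAM1. The part of other cell types in the differences between the lines was not tested.

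Of 12 cartilage and bone markers 8 were measured, and 6 of these were called lower in SAM2, while *Comp* (0.68) and *Col11a1* (0.42) were higher. Summed levels were 74690 to 77430 in SAM1, 40970 to 41590 in SAM2 and 30440 to 31560 in the controls. *Sox9*, the regulator of cartilage formation, measured 6162, 6082 and 6242 in SAM1, 2294, 2414 and 2305 in SAM2 and 1776, 1742 and 1676 in the controls. *Acan* and *Sp7* were lower in SAM2 (-1.73 and -2.13). Of 10 fat cell markers 4 were measured, of which 2 were called higher in SAM2 and 2 lower. The fatty acid carrier *Fabp4* measured 2062, 2479.6 and 2153 in SAM1, 384, 386 and 412 in SAM2 and 613, 651 and 613 in the controls. *Lpl* was lower in SAM2 as well (-1.43). *Cebpa* was higher in SAM2 (1.19), *Pparg* was slightly higher (0.22), and *Adipoq* and *Plin1* were not listed. Fibroblast markers split, with 6 called higher (40.0%) and 8 lower (53.3%) of 15, against 31.1% and 29.2% of all genes. *Col1a1*, *Col1a2*, *Col3a1*, *Fn1*, *Thy1* and *Lum* were higher in SAM2, and *Vim* (-0.63), *S100a4* (-1.29) and *Twist2* (-0.68) were among the 8 lower. *Fn1* was at 0.00 with quantile normalization and was then not called.

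Ribosome and nucleolar genes, which bear on the nucleolar and ribosomal changes that the series is about, differed by under 2-fold. Ribosome assembly and nucleolar genes gave 46 called higher in SAM2 (38.0%) and 20 lower (16.5%) of 121, against 31.1% and 29.2% of all genes, with a median of 0.05 that turned to -0.0073 with quantile normalization. Of large-subunit ribosomal proteins 19 were called higher (38.8%) and 5 lower (10.2%) of 49, with a median of 0.07. Of small-subunit proteins 6 (18.2%) and 5 (15.2%) of 33 were, fewer in each direction than among all genes (median 0.06, which turned just below 0 with quantile normalization). None of these 3 lists held a called difference over 2-fold. The nucleolar genes *Ncl*, *Fbl* and *Npm1* differed by -0.04, -0.01 and 0.13, with 95% intervals of -0.10 to 0.03, -0.12 to 0.09 and 0.02 to 0.24, and *Npm1* alone of these was called. It lost the call with quantile normalization (adjusted p = 0.142), with edgeR on 8 libraries (0.0945) and without 1 library in 5 of 6 cases (0.0757 to 0.137). The p53 gene *Trp53* and its targets *Cdkn1a* and *Mdm2* differed by -0.06, -0.11 and 0.03 and were not called (adjusted p = 0.115, 0.0741 and 0.416). With quantile normalization *Trp53* and *Cdkn1a* were called lower in SAM2 (adjusted p = 0.00482 and 0.0317), and *Cdkn1a* was called lower without SAM1 replicate 1 or SAM2 replicate 3 as well (0.0407 and 0.0400). Of 46 p53-related genes 21 were called higher (45.7%) and 8 lower (17.4%), with a median of 0.13 and differences from -1.21 to 1.18. The largest rises were *Sulf2* (1.18) and *Eda2r* (1.17), both over 2-fold, and *Pmaip1* differed by 0.99. *Myc* measured 9389, 9524 and 9466 in SAM1, 13969, 14198 and 14210 in SAM2 and 14778, 15113 and 14628 in the controls.

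Cell cycle lists leaned toward SAM1 by small amounts. Among all genes, 29.2% were called lower in SAM2 and 31.1% higher. Of 84 mitosis genes 35 were called lower (41.7%) and 14 higher (16.7%), with a median of -0.06. Of 56 DNA replication genes 28 were called lower and 9 higher, with a median of -0.10. Neither list held a difference over 2-fold. Both lines lay above the controls in mitosis genes, with medians of 1.23 for SAM1 and 1.19 for SAM2. Of the G1 regulators, *E2f1* was lower in SAM2 (-0.66) and *Ccnd2*, cyclin D2, was higher, at 23463, 22497 and 23203 in SAM1, 43390, 44052 and 44980 in SAM2 and 31803, 29686 and 29488 in the controls. Glycolysis genes were lower in SAM2 in 18 of 24 and higher in 3 (median -0.29), with *Pfkfb4* at -0.85 and *Gapdh* at -0.31, while *Hk2*, a hexokinase, was higher (0.84). *Actb*, often used for scaling, was 1.38-fold higher in SAM1.

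For the remaining lists, the shares over all genes were again 31.1% called higher in SAM2 and 29.2% lower. Hippo pathway genes gave 15 called higher (53.6%) and 6 lower (21.4%) of 28, with *Ccn1* and *Ccn2* higher in SAM2 (0.43 and 0.49). DNA methylation and Polycomb genes gave 15 (50%) and 6 (20%) of 30. Contractile genes gave 7 (19.4%) and 18 (50%) of 36. Chemokines and secreted senescence factors gave 16 (32.65%) and 21 (42.9%) of 49, and hnRNP genes 6 (20%) and 11 (36.7%) of 30. *Il1rn*, an antagonist of interleukin 1, measured 2263, 2132 and 2269.6 in SAM1 and 632, 644 and 597 in SAM2. Imprinted genes gave 15 (42.9%) and 13 (37.1%) of 35, with *Ndn* 3.98-fold higher in SAM1 and *H19* 2.25-fold higher in SAM2. Immediate early genes gave 15 (45.5%) and 11 (33.3%) of 33, with *Atf3*, a stress factor, higher in SAM2 (1.11) and *Dusp4* lower (-1.03). NRF2 antioxidant genes gave 8 (32.0%) and 9 (36.0%) of 25, near the shares of all genes, and *Gsta4* and *Nqo1* were lower in SAM2 (-1.69 and -0.89). Cholesterol synthesis genes gave 5 (20%) and 9 (36%) of 25, and hypoxia genes 9 (40.9%) and 10 (45.45%) of 22. Cytosolic heat shock genes gave 7 (35%) and 7 (35%) of 20, and circadian clock genes 5 (25%) and 8 (40%) of 20. Cathepsin genes gave 3 (27.3%) and 4 (36.4%) of 11, and CDK inhibitor genes 7 (53.85%) and 3 (23.1%) of 13. From cholesterol synthesis on, these lists had medians between -0.12 and 0.15. Those of hypoxia and cathepsin genes turned to 0.06 and 0.03 with quantile normalization. Neural and glial (1 and 3 of 5), skeletal muscle (2 and 2 of 4), pericyte (2 and 3 of 5), germ cell (1 higher of 3) and sex chromosome genes (2 and 3 of 8) were measured in too few members to describe further.

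**Figure D5:**
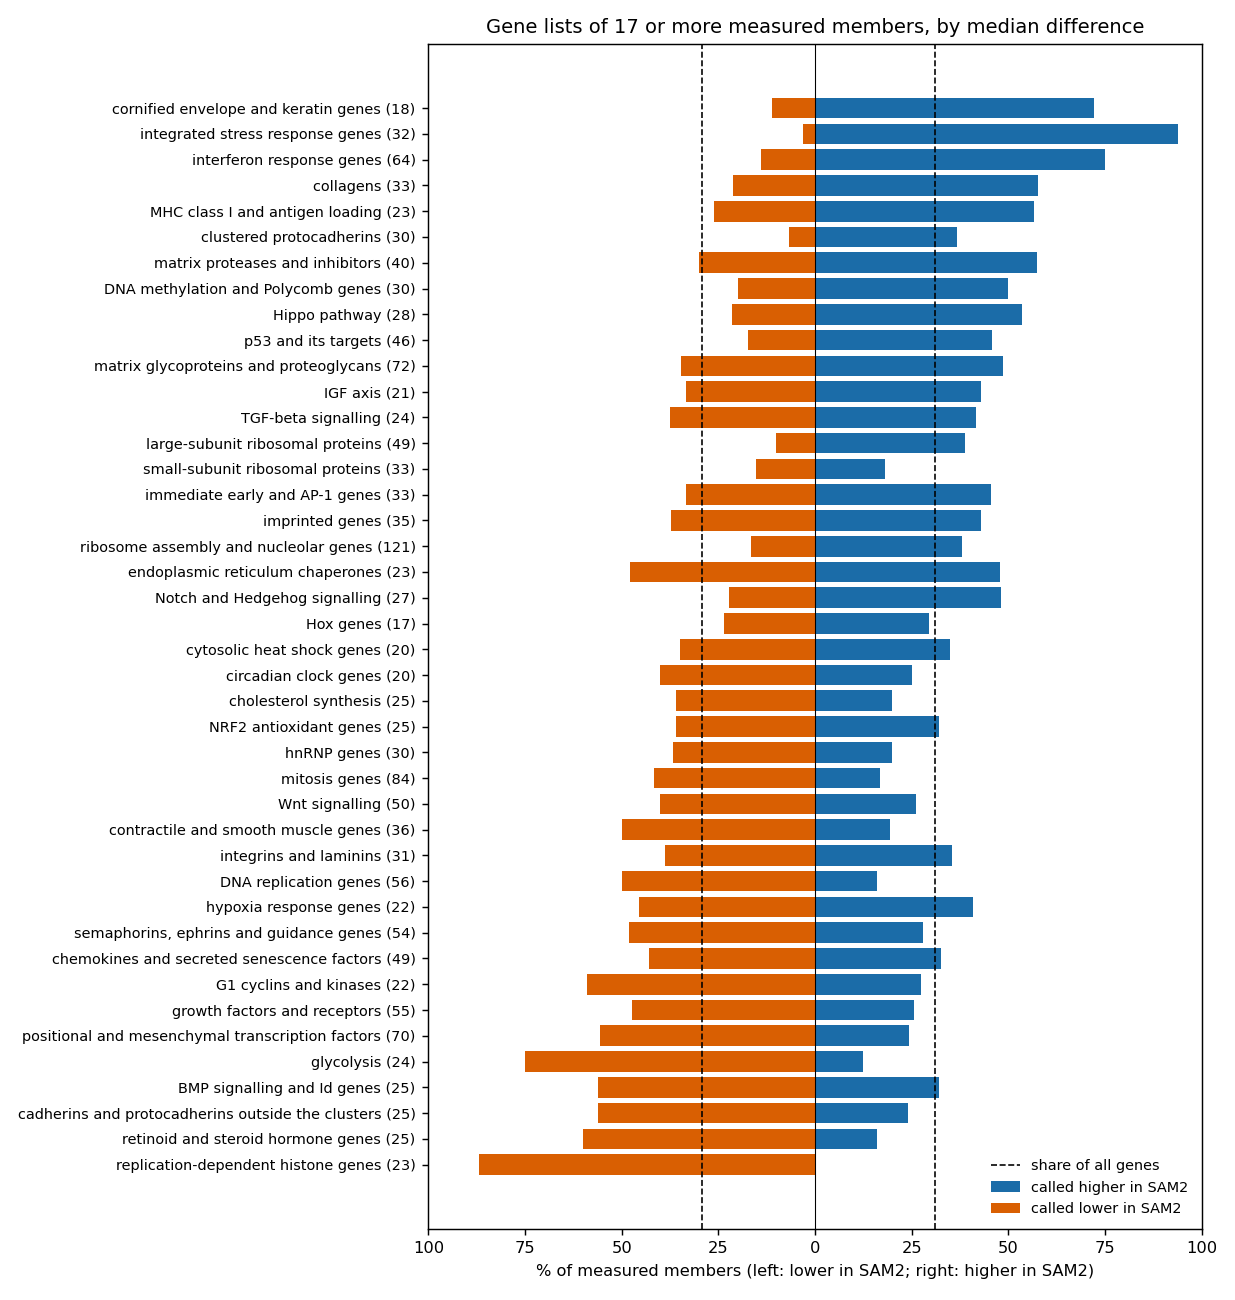
For each gene list with at least 17 measured members (number in brackets), the percentage called higher in SAM2 (blue, to the right) and lower in SAM2 (orange, to the left), ordered by median difference, with dashed lines at the shares of all genes, 31.1% and 29.2%. Integrated stress response genes have 30 of 32 members on the right, and replication-dependent histone genes 20 of 23 on the left.

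Differences were also uneven along the genome (GRCm39). On chromosome 15, 50.3% of 596 genes were called higher in SAM2 and 16.6% lower, with a median of 0.14. On chromosome 2, 16.8% of 1146 genes were called higher and 45.4% lower, with a median of -0.13, and on chromosome 13, 18.9% of 598 and 42.8% (median -0.12). The direction of these 3 medians was the same with quantile normalization and among genes above 10 in every library. By contrast, some chromosomes differed from the controls alike in both lines, such as chromosome 14, with medians of 0.53 in SAM1 and 0.57 in SAM2 but 0.05 between the lines. In 4 segments the running median of 25 neighbouring genes lay over 0.4 from the median of all genes in at least 10 successive windows. Segments were picked by this same difference, so their counts largely follow from the choice and are a description. Over all genes 31.1% were called higher in SAM2 and 29.2% lower. In chr12:17222101-24764145, 16 of 36 genes were called lower in SAM2 and 3 higher, with a median of -0.48, and SAM1 lay near the controls there (-0.02) while SAM2 lay at -0.39. *Odc1*, the first enzyme of polyamine synthesis, measured 6807, 6809 and 6664 in SAM1, 3424, 3395 and 3324 in SAM2 and 6532, 7257 and 6617 in the controls, and *Ywhaq* and *Pdia6* differed by -0.45 and -0.41.

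In chr11:44508138-50780566, 31 of 41 genes were called higher in SAM2 and 5 lower, with a median of 0.36. The autophagy receptor *Sqstm1* measured 32836, 34376 and 32706 in SAM1, 48252, 48894 and 48245 in SAM2 and 43612, 46018 and 43620 in the controls, and *Rack1* differed by 0.33, while *Hnrnph1* was lower in SAM2 (-0.26). The segment chr13:21546978-27433666 holds the main histone cluster, and 31 of its 53 genes were called lower (median -0.57). The segment chr3:90383412-94789637 holds the *Sprr* cluster, with 20 of 43 genes called higher, 13 lower, a median of only 0.09 over the segment and 1 window of 25 neighbours with a median 2.30 above that of all genes. The calcium-binding genes *S100a4* (-1.29) and *S100a10* (-0.38) of the same segment were lower in SAM2.

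The empty vector libraries lay nearer to SAM2 for most genes that were high in SAM1. Of 1044 genes over 2-fold lower in SAM2, the controls were closer to SAM2 in 777 (74.4%), with medians of 1.53 for SAM1 against the controls and -0.08 for SAM2. Of 404 genes over 2-fold higher in SAM2, the controls were closer to SAM2 in 206 and to SAM1 in 198. Of the same 1044 genes, 736 had a mean below 100. Genes could enter the table through the SAM1 libraries alone, so low controls beside low SAM2 values follow in part from the choice of genes. Among all called genes, the controls were closer to SAM2 in 58.2% of those higher in SAM2 and 60% of those lower. Against the controls, which both comparisons share, 11275 genes (74.3%) were called in SAM1 and 10699 (70.5%) in SAM2. In SAM1, 37.3% of all genes were called higher and 36.9% lower, with 12.7% and 5.04% over 2-fold. In SAM2 the shares were 35.2% and 35.3%, with 8.52% and 4.83% over 2-fold. A total of 492 genes (3.24%) were called below the controls in SAM1 and above them in SAM2, and 393 (2.59%) the reverse. For these 885 genes the label Hnrnpk_SAM stood for opposite differences from the controls.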

How the data were processed

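RNA-Seq was performed on polyA+ RNA of 9 libraries with a directional kit and paired reads of 43 bases. Per the methods of the study, the authors checked read quality with FastQC 0.11.0, aligned reads to GRCm39 with TopHat2, allowing 3 mismatches and 20 multihits, counted reads with HTSeq on the GENCODE vM29 annotation and normalized them with DESeq2. The strand setting of the counting is not given in the sources used here, so reads of overlapping antisense genes cannot be told apart. The deposited signal values are read counts divided by a size factor of the library, and the authors kept genes above 10 in at least 30% of libraries.

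A single fit of all 9 libraries on log2 (value + 1) was made with limma 3.58.1 (moderated, with a mean-variance trend, R 4.3.3), and SAM2 minus SAM1 was tested two-sided with Benjamini-Hochberg adjustment over 15184 genes at 0.05. Called means past this threshold. Values of all 9 libraries were whole multiples of 1 step within 0.001 of a step, which returned the reads for edgeR 4.0.16 and DESeq2 1.42.0 as alternatives. In SAM2 replicate 1 the step is so near 1 that this is a weaker check, and edgeR was also run without that library. The scripts were tested on simulated data. Positions are from GENCODE vM39, in which 14791 names were found once.

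Genes were named by a rule: the 15 largest differences in each direction with a mean of at least 100, up to 5 members of each of 56 lists in each direction, the highest genes at most 10 in the other line, fixed controls, the 4 most expressed genes of each chromosome segment and the 10 largest opposite differences. *Malat1*, *Neat1*, *L1cam*, and further members of the Id, Hoxb, Gbp, Sprr, keratin, collagen, cadherin, retinoid, interferon and integrated stress response groups were named after their values were seen. The 15 largest differences in each direction were drawn from called genes in which the lines did not overlap. The members and lists were chosen with earlier results of these data known. Counting intervals and floors of 3 reads cover counting error only.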

Additional observations from a re-analysis of the deposited data

Results flagged for a closer look

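For 10 genes the lines lay on opposite sides of the empty vector libraries by the largest margins, among 771 genes with a mean of at least 100 that were called in opposite directions against the controls. The difference between the lines is the test of SAM2 minus SAM1 (limma, adjusted p at most 6.38e-09), and all values are on the log2 scale of value + 1. Of these, 7 lay below the controls in SAM1 and above them in SAM2. *Sprr2f* differed by 11.05, from -5.60 in SAM1 to 5.45 in SAM2 against the controls. The other small proline-rich genes were *Sprr2b* (8.40), *Sprr2d* (7.99) and *Sprr2g* (7.04), and *Lor*, of the same cornified envelope, differed by 8.08.

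*Kap* differed by 9.16 and *Tenm4*, a teneurin of cell adhesion, by 3.38. *Kap* had 0 reads in SAM1 and *Sprr2b* and *Sprr2d* had 2 and 3, so these fitted values depend on the pseudocount, and the count ratios given above for these genes are the better measure.

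The remaining 3 genes lay above the controls in SAM1 and below them in SAM2. *Tmem255a* differed by -11.62, from 8.93 in SAM1 to -2.69 in SAM2. The amino acid transporter *Slc6a15* differed by -6.63 and the stromelysin *Mmp3* by -4.88. These genes were picked as the largest of many, so their sizes are a description.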

How the results depend on the processing

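The number of called genes was 8235 to 9812 over 16 alternatives, against 9162. It was 9601 in a fit of the 6 libraries of the lines alone, without the empty vector libraries. It was 9320 with edgeR, 8653 with DESeq2, 9141 with TMM factors and 8415 with edgeR on 8 libraries, the last added after the data were seen. Every gene called in common kept its direction. Leaving out 1 library of either line gave 8235 to 8748 called genes, 4245 to 4544 higher and 3979 to 4204 lower, and 400 to 418 higher and 1017 to 1041 lower by over 2-fold.

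The counts over 2-fold moved by more than 1.5 times in 3 settings. A pseudocount of 10 gave 633 lower. Genes above 10 in each of the 9 libraries gave 264 higher and 472 lower, of fewer genes tested. Quantile normalization gave 667 higher (697 lower), and shared 7818 calls with the fit as reported. Of 522 named genes 496 were called, 473 kept their call and direction in every alternative and none reversed. For named genes, 126 values lost the call and 20 gained it.

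Same-numbered libraries of SAM1 and SAM2 deviated together with correlations of 0.00237 to 0.105 (3 pairs). With the empty vector libraries included, all 9 same-numbered pairs lay above 0, at 0.00237 to 0.117. Not every library correlated best with its own number, and the fit as reported took them to share only a number. Whether a shared number stands for a shared batch was not tested. A fit with the replicate block called 9812 genes. Depth limits mainly genes with few reads in a line, for which the log2 difference depends on the pseudocount.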
